A study of Mus musculus with 8 samples.

Results

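The 9 genes described here encode the main transcription factor subunits of the AP-1, BATF and IRF4 network of T cells: the JUN family genes Jun, Junb and Jund, the FOS family genes Fos, Fosb and Fosl2, the BATF family genes Batf and Batf3, and the interferon regulatory factor gene Irf4. They were taken by symbol from a table of 11233 genes, all 9 were found, and all 9 passed the minimum mean of 10 normalized counts that left 11032 genes for testing. The table holds 8 bulk RNA-Seq libraries of tumor-infiltrating CD4+ conventional T (Tconv) cells, 4 sorted as CCR8+ and 4 sorted as CCR8-. CCR8 is a chemokine receptor otherwise abundant on tumor regulatory T (Treg) cells. All cells came from B16-F10 tumors, a transplantable mouse melanoma, implanted subcutaneously in Foxp3-EGFP-DTR mice, in which the Foxp3 gene drives EGFP together with a human receptor for diphtheria toxin. Every animal behind these 8 libraries was given diphtheria toxin (DTx), which kills cells that carry the receptor, so both populations are from Treg-depleted hosts and neither is an untreated control. According to the methods, DTx was given in 4 injections of 1 µg between day 7 and day 13 after implantation to mice aged 8 to 14 weeks, and CD4+ cells without EGFP were sorted on day 16, although the title of a supplementary file gives day 18. The paper's figure legend for these cells gives 4 biological replicates, all from the same day of isolation. The number of mice behind a library and whether a shared replicate number stands for a shared mouse are not stated, so the p-values measure the spread between these libraries.

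AP-1 is a dimer of bZIP proteins. JUN proteins pair with each other or with FOS proteins, FOS proteins need a JUN partner, and BATF proteins, which lack the large activation domains of FOS, pair with JUN proteins and recruit IRF4 or IRF8 to composite DNA elements. In T cells, signals from the antigen receptor pass through MAP kinases to induce FOS and JUN genes within minutes as immediate-early genes, while BATF and IRF4 accumulate with activation and take part in the differentiation of effector and regulatory T cells. Immediate-early transcripts are also induced by handling of tissue, and here the tumors were digested with enzymes before sorting.

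The reads recovered for the listed genes summed to between 12067780 and 17802628 per library, which leaves out reads outside these genes. A count of 0 allows up to 3 reads, which corresponded to between 2.21 and 3.42 normalized counts. These limits cover counting error only. Replicate 1 of the CCR8- cells stood apart with 8569 genes detected, against 10394 to 10882 in the other CCR8- libraries and 9544 to 10707 in the CCR8+ libraries. T cell markers were present in all libraries, with 11 of 14 in the table, none of them at 0 in any library and summed levels of 105670 to 136958 normalized counts in CCR8- and 107593 to 138350 in CCR8+ cells. The transcript of the sorted receptor, Ccr8, was at 1293 to 6214 in CCR8- and 6970.2 to 42508 in CCR8+ cells, without overlap. Markers of other cells varied between libraries. The 18 macrophage and dendritic cell markers summed to between 9538 and 110343 normalized counts in CCR8- and between 7591 and 61406 in CCR8+ cells, with 7 of 18 at 0 in at least one library. This sum mixes markers of unlike spread. In CCR8- replicate 1, Ccr2 gave 6093 of 10571 normalized counts, with Lyz2 at 14.8 and C1qb at 3.94. Lyz2 alone ranged more widely than the sum, from 14.8 to 28853 in CCR8- and from 1396 to 19993.5 in CCR8+ cells. The 7 melanoma markers summed to between 105 and 17389 and between 232 and 21841. CD8 T and NK cell markers, 6 of 8 in the table, summed to 1034 to 5431 and to 497 to 1583, and B cell markers, 4 of 5 in the table, summed to 29.4 to 365 and to 0 to 447. In bulk samples, fewer cells of a type and less RNA per cell cannot be told apart.

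Across the 9 genes, Batf and Batf3 stood higher in every CCR8+ library than in every CCR8- library, and the other 7 genes overlapped between the populations. Batf averaged 6588 ± 733 normalized counts in CCR8- and 10465 ± 3837 in CCR8+ cells (SD, n = 4 each), a 1.53-fold difference. Batf3, with far fewer reads, averaged 22.02 ± 15.5 and 80.7 ± 31.0 (SD, n = 4 each). For none of the 9 genes did all CCR8+ libraries lie below all CCR8- libraries. None of them passed limma's test at an adjusted p under 0.05, where 0% of the 11032 genes tested passed. Only 1 of the 9, Batf, had an unadjusted p under 0.05 in limma and in the edgeR quasi-likelihood test, and 2 of the 9, Batf and Jun, had one in the DESeq2 Wald test, with Batf higher and Jun lower in CCR8+ cells. Batf lost its unadjusted p under 0.05 in 9 of 24 alternatives, among them limma with the replicate block, limma without the intensity trend and limma without CCR8+ replicate 3. Among all genes tested, 2.8% had an unadjusted limma p under 0.05 and a higher level in CCR8+ cells, and 2.29% a lower level. Groups that did not overlap were seen for 2.37% of all genes tested with CCR8+ cells higher and for 2.03% with CCR8+ cells lower, against 2 of 9 and 0 of 9 here. DESeq2 called 0 of the 9 and 0.245% of all genes, and edgeR called none of either.

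**Figure D1:**
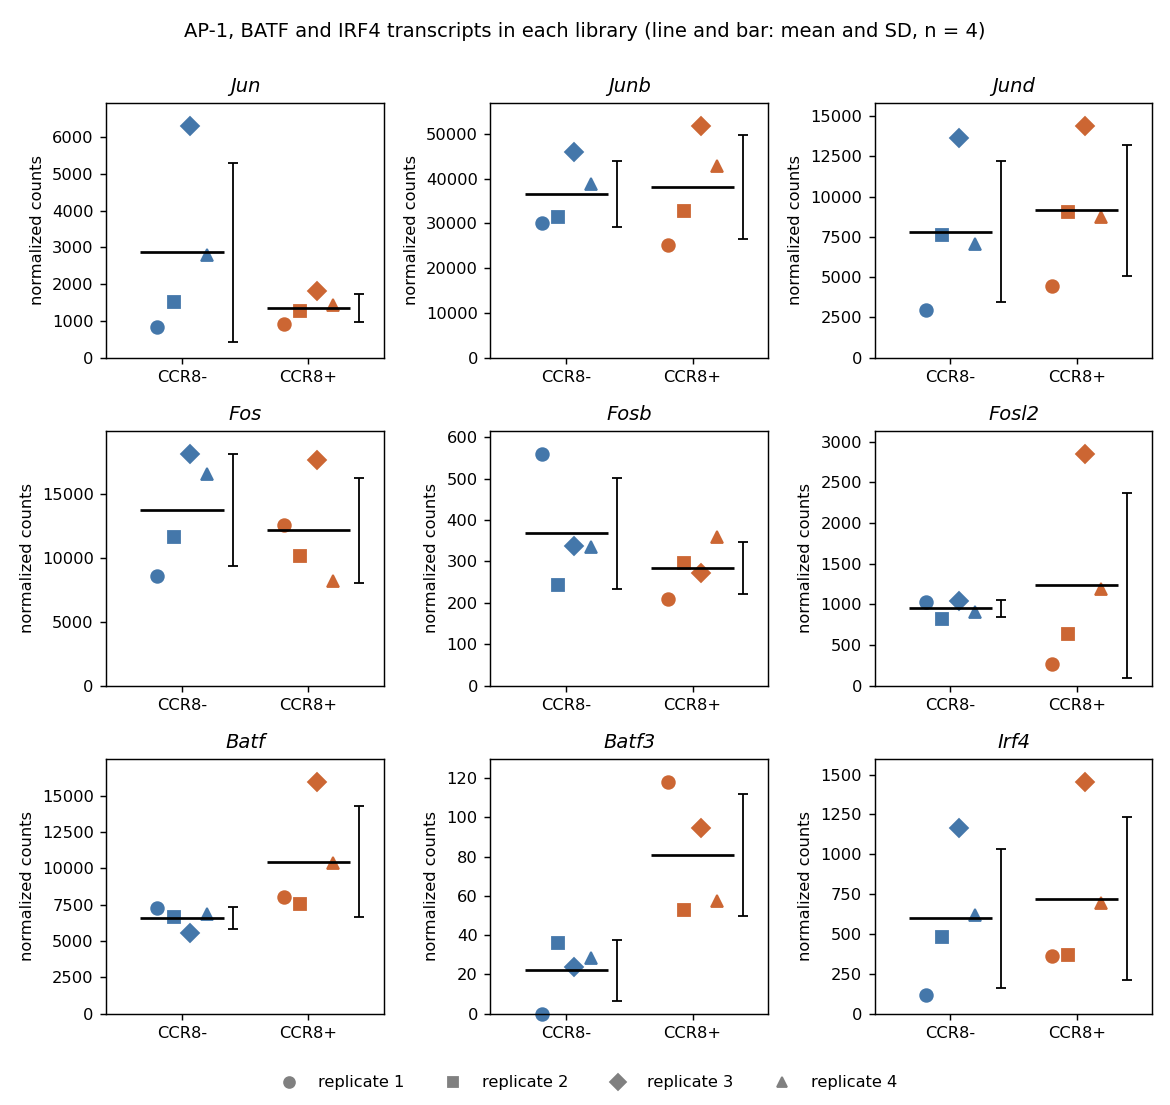
Normalized counts (vertical axes, each from 0) of the 9 genes in the 4 CCR8- and 4 CCR8+ libraries, with 1 symbol per replicate number and the mean and SD of each group. The 4 CCR8+ points lie above the 4 CCR8- points in the panels of Batf and Batf3, and replicate 3 is the highest CCR8+ point for Jun, Junb, Jund, Fos, Fosl2, Batf and Irf4.

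Levels between genes can be compared only per length. Per kilobase of exon in the GENCODE M21 models of GRCm38, Junb was the most abundant of the 9 transcripts in all 8 libraries, with 20217 ± 4095 normalized counts per kilobase in CCR8- and 21088 ± 6425 in CCR8+ cells (SD, n = 4 each). Batf, Fos and Jund followed in places 2 to 4, and their order differed between libraries. Batf averaged 6898 ± 768 per kilobase in CCR8- and 10958 ± 4018 in CCR8+ cells, Fos averaged 6494 ± 2075 and 5747 ± 1931, and Jund averaged 4694 ± 2638 and 5490.0 ± 2431 (SD, n = 4 each). The ranges of these 3 transcripts overlapped over the 8 libraries. Jun held place 5 in all 8 libraries, with a mean of 661 per kilobase and a range of 262 to 1974. Fosl2, Irf4, Fosb and Batf3 shared places 6 to 9 with means over the 8 libraries of 167, 138, 86.3 and 64.1 per kilobase and with overlapping ranges. By its mean normalized count, which is not corrected for length, Junb stood above 99.8% of the genes tested, Fos above 98.7%, Batf above 97.9%, Irf4 above 67.0% and Batf3 above 13.4%. The place of Jund rests on its gene model. The GENCODE model covers 1668 bases, of which 877 are shared with the antisense gene Gm11175, and the use of strand in the counting is not given in the sources used here, so reads of the pair cannot be told apart. Over the RefSeq span of 2878 bases the mean level of Jund was 2720.4 normalized counts per kilobase in CCR8- and 3182 in CCR8+ cells, which is still above Jun and below Fos.

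The BATF genes come first because they were the ones whose groups did not overlap. Batf (chr12:85686669-85709087, plus strand, GRCm38) encodes a small bZIP protein that activated T cells need for T helper differentiation and that pairs with JUN proteins and IRF4. Batf was measured at 7281, 6651, 5560.4 and 6857 normalized counts in CCR8- replicates 1 to 4 and at 7996, 7560.5, 15908 and 10394 in CCR8+ replicates 1 to 4. The lowest CCR8+ value thus lay above the highest CCR8- value by a small margin, and replicate 3 stood far above the other CCR8+ libraries. On the log2(normalized count + 1) scale the difference was 0.61 with a standard error of 0.26 and a 95% confidence interval of 0.05 to 1.17, which corresponds to a fold of between 1.03 and 2.25. The adjusted p from limma was 0.838, and the exact two-sided permutation test gave p = 0.0286, the smallest that 70 assignments of 8 libraries allow. Every gene whose groups do not overlap gets this permutation p, so it restates the separation and adds no support to it. Among libraries of the same number, Batf was 1.098-, 1.14-, 2.86- and 1.52-fold higher in the CCR8+ library of numbers 1 to 4. Without CCR8+ replicate 3 the log2 difference was 0.39, and without both libraries of number 3 it was 0.31. The library with the fewest Batf reads held 6038 of them.

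Batf3 (chr1:191097847-191108945, plus strand, GRCm38) encodes a close relative of BATF that is known above all for the development of cross-presenting dendritic cells and is also expressed in activated T helper cells. Its transcript was measured at 0, 36.0, 23.7 and 28.4 normalized counts in CCR8- replicates 1 to 4 and at 118, 52.9, 94.7 and 57.5 in CCR8+ replicates 1 to 4. These values rest on 0, 49, 27 and 25 reads in the CCR8- libraries and on 109, 63, 83 and 66 reads in the CCR8+ libraries. Every CCR8+ library therefore held more Batf3 than any CCR8- library, at a level that was low in both populations. The fitted log2 difference was 2.60 with a standard error of 1.49, and its 95% confidence interval ran from -0.69 to 5.88. The adjusted limma p was 0.838, and the exact two-sided permutation test gave p = 0.0286, which the lack of overlap fixes in advance. Much of the fitted size came from the library at 0, CCR8- replicate 1, which was also the library with the fewest genes detected. Without that library the log2 difference was 1.37, and without both libraries of number 1 it was 1.16. The size also moved with the constant added before taking logs, from 1.64 with a pseudocount of 10 to 3.44 with 0.1. Among same-numbered libraries Batf3 was 1.46-, 3.88- and 1.99-fold higher in CCR8+ cells for numbers 2 to 4, and at least 39.9-fold higher for number 1, where the CCR8- library was taken at its limit of 3 reads.

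Because Batf3 is a dendritic cell gene, 6 further dendritic cell genes were examined after its values had been seen, of which 5 were in the table. Their summed level was between 234 and 721 normalized counts in CCR8- and between 344 and 578 in CCR8+ cells, and the groups overlapped. Xcr1, a receptor of cross-presenting dendritic cells, was measured at 250.2, 214, 121 and 201 normalized counts in CCR8- replicates 1 to 4 and at 175, 237, 487 and 188 in the CCR8+ ones. Flt3 was at 0 in all CCR8- libraries and in CCR8+ replicates 2 to 4 but at 91.9 in CCR8+ replicate 1, the library with the most Batf3. Itgax, the integrin of dendritic cells and some macrophages, was at 0, 40.4, 28.1 and 225 in CCR8- replicates 1 to 4 and at 0, 29.4, 0 and 13.1 in the CCR8+ ones, and thus at 0 in the CCR8+ library with the most Batf3. Zbtb46, a factor of conventional dendritic cells, was at 46.6 to 471 and at 34.2 to 311, and Wdfy4 at 0 to 21.6 and 0 to 27.0. The part of such cells in the Batf3 result was not tested.

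The promoters of Batf, Batf3 and Jun are shown because the first 2 genes were higher in all CCR8+ libraries and Jun held the one CRE-like match among the 9. The 250 bases before the RefSeq start site in GRCm38.p6 are printed 5′ to 3′ on the strand of the gene, with matched motifs in capitals. The windows are chr12:85686470-85686719 (plus strand) for Batf, chr1:191098164-191098413 (plus strand) for Batf3 and chr4:95052223-95052472 (minus strand) for Jun. GENCODE starts the gene models of Batf and Batf3 upstream of these RefSeq starts.
Batf: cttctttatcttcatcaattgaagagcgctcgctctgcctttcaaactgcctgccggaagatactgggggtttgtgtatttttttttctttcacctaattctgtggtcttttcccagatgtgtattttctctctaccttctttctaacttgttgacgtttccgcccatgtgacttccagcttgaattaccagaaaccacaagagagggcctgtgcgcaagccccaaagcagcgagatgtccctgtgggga
Batf3: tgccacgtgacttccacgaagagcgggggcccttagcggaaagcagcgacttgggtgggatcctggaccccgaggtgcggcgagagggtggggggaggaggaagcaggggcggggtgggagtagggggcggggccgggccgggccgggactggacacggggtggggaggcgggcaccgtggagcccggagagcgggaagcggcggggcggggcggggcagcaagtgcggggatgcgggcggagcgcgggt
Jun: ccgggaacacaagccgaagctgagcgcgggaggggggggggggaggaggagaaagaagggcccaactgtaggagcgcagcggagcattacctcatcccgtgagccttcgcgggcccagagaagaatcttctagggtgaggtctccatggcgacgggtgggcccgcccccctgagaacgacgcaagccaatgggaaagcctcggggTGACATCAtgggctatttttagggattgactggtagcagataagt
Motifs were searched on both strands in windows from 250 bases before to 50 after the start of 27025 RefSeq genes, in which all 9 genes were found. The Jund window (chr8:70697489-70697788) ended before the GENCODE start at 70698949. The windows of Fosl2 (chr5:32136222-32136521) and Batf3 began after the GENCODE starts at 32135801 and 191097847. For these genes the bases just before the GENCODE start were not searched. The AP-1 motif TGANTCA was in 7.93% of all windows and in 0 of the 9. The cyclic AMP response element TGACGTCA was in 1.88% of all windows and in 0 of the 9, and its variant TGACATCA in 3.76% and in 1 of the 9, Jun, at bases -45 to -38. The interferon-stimulated element GAAANNGAAA was in 3.49% of all windows and in 1 of the 9, Fosl2, at bases -221 to -212. The CArG box of serum response factor was in 1.57% of all windows and in 0 of the 9. These searches say only which letters lie in these windows. The 3 promoters differ in base composition, with 46.4% G and C in Batf, 76% in Batf3 and 61.2% in Jun.

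JUN family genes supply the partners of both FOS and BATF proteins, and none of the 3 separated the populations. Jun (chr4:95049034-95052222, minus strand) encodes c-JUN, the strongest activator of the family. Jun was measured at 835, 1516, 6296 and 2797 normalized counts in CCR8- replicates 1 to 4 and at 907, 1275, 1820.1 and 1419.8 in CCR8+ replicates 1 to 4. The CCR8- libraries spread over a 7.54-fold range and the CCR8+ libraries over a 2.01-fold range that lay within it, so that the lower CCR8+ mean of 1356 ± 378 against 2861 ± 2430 (SD, n = 4 each) came mostly from CCR8- replicate 3. The log2 difference was -0.72 with a standard error of 0.52, a 95% confidence interval of -1.86 to 0.41 and an adjusted limma p of 0.838. Without CCR8- replicate 3 it was -0.21, and without CCR8- replicate 1 it was -1.18.

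Junb (chr8:84974484-84978718, minus strand) encodes JUNB, a partner of BATF in T helper cells. Junb was measured at 30003, 31431, 46067 and 38791 normalized counts in CCR8- replicates 1 to 4 and at 25091.5, 32863.5, 51714 and 42922 in the CCR8+ ones. Its libraries spread over a 1.54-fold range in CCR8- and a 2.06-fold range in CCR8+ cells around almost the same centre. The log2 difference of 0.03 had a 95% confidence interval of -0.65 to 0.71 and an adjusted limma p of 0.991, and its sign depended on the scaling, with -0.04 when all libraries were set to equal totals. The interval leaves room for differences of up to 1.64-fold in favor of CCR8+ cells and down to 0.637-fold.

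Jund (chr8:70698949-70700616, plus strand) encodes JUND, the family member that resting cells also express. Jund was measured at 2985, 7589, 13661 and 7082 normalized counts in CCR8- replicates 1 to 4 and at 4478, 9058, 14375 and 8718 in the CCR8+ ones. Replicate 1 was the lowest and replicate 3 the highest library in both populations, and the groups overlapped over most of their range. Within each number the CCR8+ library was the higher, by 1.5001-, 1.19-, 1.05- and 1.23-fold. The log2 difference across the groups was 0.30 with a 95% confidence interval of -0.69 to 1.30 and an adjusted limma p of 0.896. It was -0.10 without CCR8- replicate 1. Jund, Batf and Batf3 were the 3 of 9 genes that were higher in CCR8+ cells in 4 of 4 numbers, a pattern that 8.44% of all genes tested showed.

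**Figure D2:**
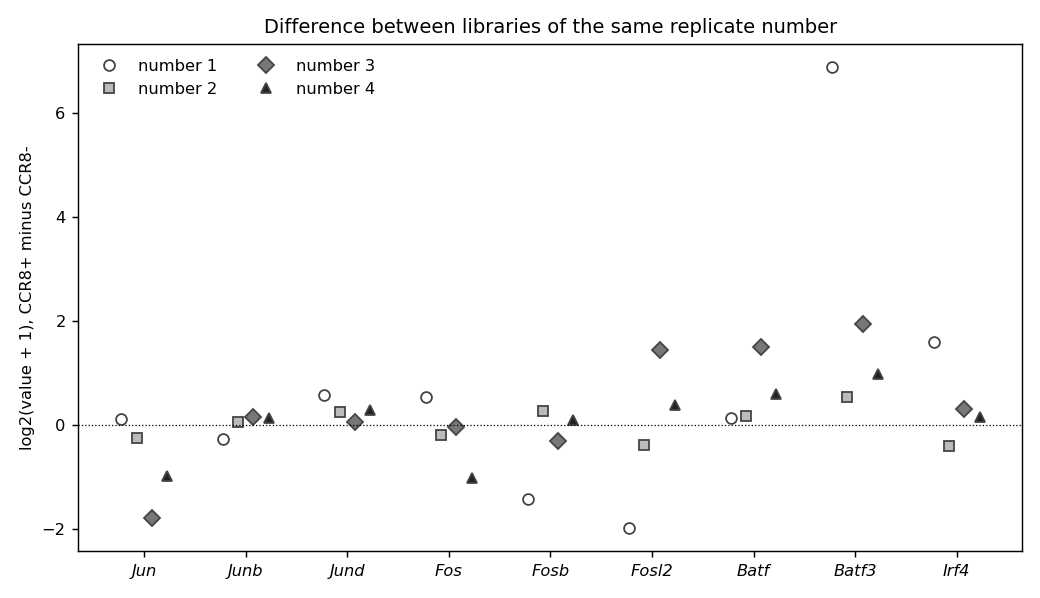
Difference in log2(normalized count + 1) between the CCR8+ and the CCR8- library of the same replicate number (vertical axis) for each of the 9 genes, with 1 symbol per number. All 4 points are above 0 for Jund, Batf and Batf3, and the point of Batf3 at number 1 rests on a CCR8- library at 0, so that its height depends on the pseudocount of 1.

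FOS family genes, which depend on JUN partners, overlapped between the populations as well. Fos (chr12:85473890-85477273, plus strand) encodes c-FOS, the prototype immediate-early protein. Fos was measured at 8601, 11587, 18064 and 16507.5 normalized counts in CCR8- replicates 1 to 4 and at 12519, 10134, 17614 and 8195 in the CCR8+ ones. The groups overlapped over nearly their whole range, and the CCR8+ library was the higher in number 1 only, by 1.46-fold, and the lower in number 4, at 0.496 of the CCR8- level. The log2 difference was -0.17 with a 95% confidence interval of -0.85 to 0.51 and an adjusted limma p of 0.915.

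Fosb (chr7:19302696-19310051, minus strand) encodes FOSB, another immediate-early protein. Fosb was measured at 559, 243, 338 and 334 normalized counts in CCR8- replicates 1 to 4 and at 209, 296, 273 and 359.5 in the CCR8+ ones. The highest Fosb level was that of CCR8- replicate 1, the library in which Jun, Jund and Irf4 were at their lowest, and the 7 other libraries lay between 209 and 359.5. The log2 difference was -0.33 with a 95% confidence interval of -1.31 to 0.64 and an adjusted limma p of 0.885.

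Fosl2 (chr5:32135801-32157842, plus strand) encodes FRA2, a FOS protein without a strong activation domain that restrains several T helper programs. Fosl2 was measured at 1028, 825, 1046 and 903 normalized counts in CCR8- replicates 1 to 4 and at 262, 636, 2847 and 1187 in the CCR8+ ones. The CCR8- libraries lay within a 1.27-fold range, while the CCR8+ libraries spread over a 10.9-fold range on both sides of them. Its SD on the log2 scale was 0.16 in CCR8- and 1.45 in CCR8+ cells, a difference in spread that was not tested. The arithmetic mean was 951 ± 105 in CCR8- and 1233 ± 1141 in CCR8+ cells (SD, n = 4 each). The log2 difference was -0.13 in limma, with a 95% confidence interval of -1.40 to 1.15 and an adjusted p of 0.970. It was 0.37 in both edgeR and DESeq2 and -0.11 in DESeq2 with the replicate block, so its direction depended on the fit.

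Irf4 (chr13:30749226-30766976, plus strand) encodes the factor that BATF-JUN dimers recruit and whose amount follows the strength of antigen receptor signaling. Irf4 was measured at 119, 484, 1167 and 620.1 normalized counts in CCR8- replicates 1 to 4 and at 364, 369, 1452 and 697 in the CCR8+ ones. The lowest library of all was CCR8- replicate 1, and replicate 3 was the highest in each population. The groups overlapped, and CCR8+ cells were higher in 3 of 4 numbers, by 3.04-, 1.24- and 1.12-fold, and lower in number 2, at 0.762 of the CCR8- level. The log2 difference was 0.42 with a standard error of 0.68, a 95% confidence interval of -1.06 to 1.91 and an adjusted limma p of 0.904. Without CCR8- replicate 1 it was -0.21.

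**Figure D3:**
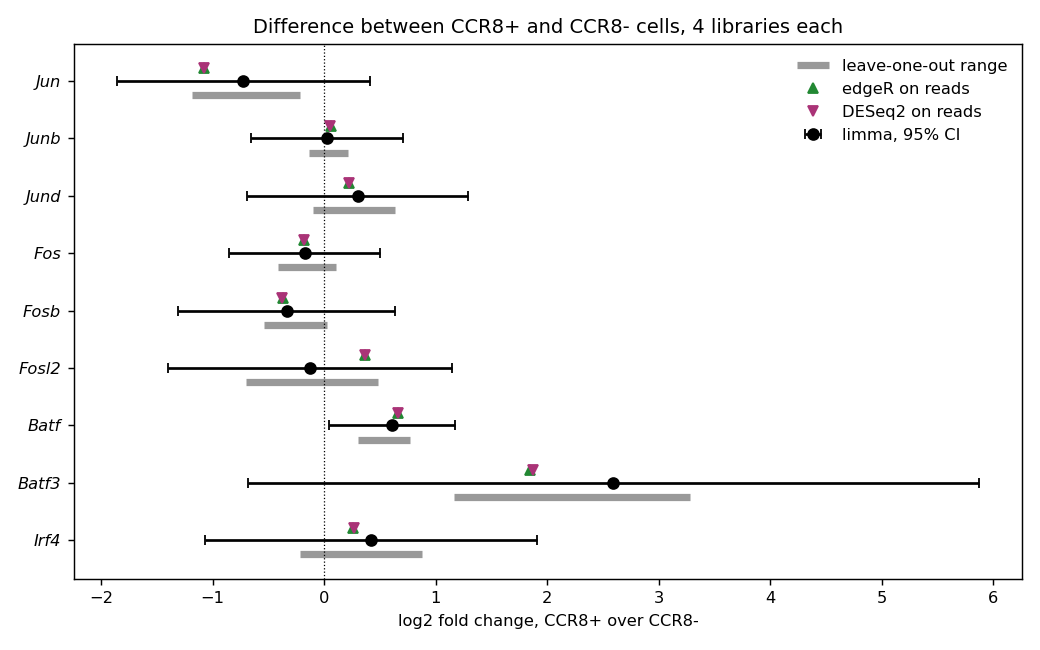
Log2 fold change of CCR8+ over CCR8- cells (horizontal axis) for each of the 9 genes, with the limma estimate and 95% confidence interval in black, the edgeR and DESeq2 estimates as triangles and the range over leaving out single libraries or replicate numbers as a grey bar. Batf is the only gene whose interval lies above 0 (0.05 to 1.17), before adjustment for the number of genes tested.

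The makeup of the network was described by the share of each family in the summed per-kilobase level of the 8 AP-1 and BATF transcripts. BATF genes took 24.9%, 19.97%, 11.6% and 17.2% of this sum in CCR8- replicates 1 to 4 and 27.1%, 21.6%, 26.5% and 24.6% in CCR8+ replicates 1 to 4. The share was larger in the CCR8+ library of every number, by little in numbers 1 and 2 and by more in numbers 3 and 4, but CCR8- replicate 1 lay among the CCR8+ libraries. JUN genes took the largest share in all libraries, between 60.8% and 70.8% in CCR8- and between 53.6% and 66.0% in CCR8+ cells. FOS genes took between 14.3% and 19.3% in CCR8- and between 9.35% and 19.2% in CCR8+ cells. Within the JUN family, Junb made up 71.5% to 89.0% of the level in CCR8- and 75.7% to 82.4% in CCR8+ cells. The ratio of Jund to Jun was 6.83, 9.57, 4.15 and 4.84 in CCR8- replicates 1 to 4 and 9.44, 13.6, 15.1 and 11.7 in the CCR8+ ones. Only the lowest CCR8+ and the highest CCR8- ratio crossed. The ratio of Batf to Fos ranged from 0.679 to 1.87 in CCR8- and from 1.41 to 2.80 in CCR8+ cells and overlapped. These ratios were chosen after the values were seen and are descriptions without a test, and those with Jund rest on its GENCODE length.

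**Figure D4:**
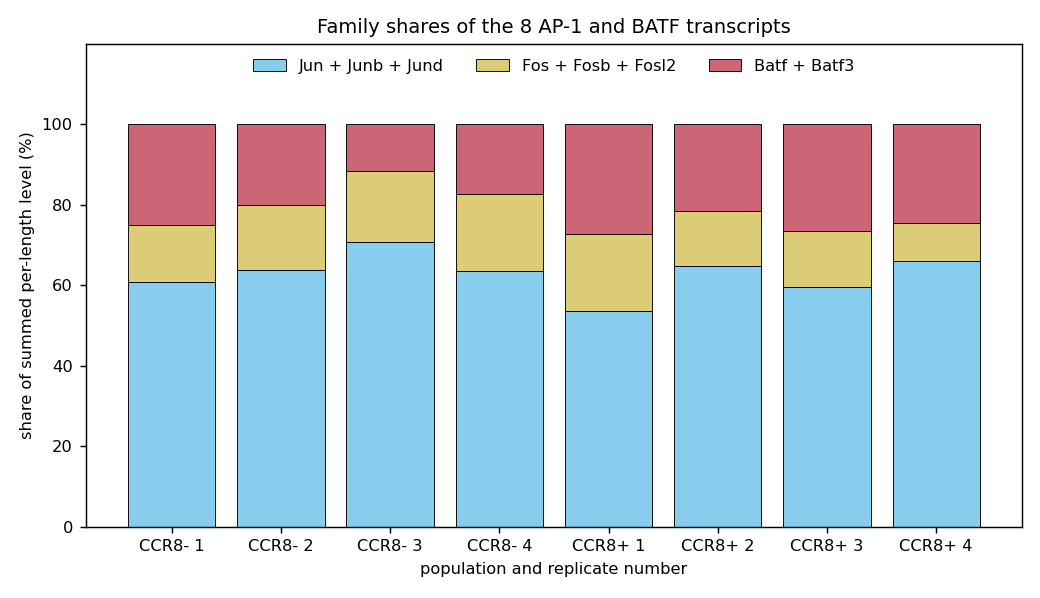
Share of the summed per-kilobase level (vertical axis, percent) taken by JUN, FOS and BATF family transcripts in each of the 8 libraries (horizontal axis, population and replicate number). The BATF share lies between 11.6% and 24.9% in the CCR8- and between 21.6% and 27.1% in the CCR8+ libraries.

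Some of the 9 genes followed each other over the 8 libraries. On the log2 scale Pearson's r was 0.92 for Irf4 with Jund, 0.85 for Fosl2 with Junb, 0.82 for Jund with Junb and 0.81 for Irf4 with Junb, and it was -0.87 for Batf3 with Fosb. For Batf, r with the other 8 genes was between -0.30 and 0.55. These values are descriptions over 8 libraries that share a sort day and a low-input amplification, and CCR8- replicate 1 lay at an extreme for Fosb, Jun, Jund, Batf3 and Irf4. Among all genes with a mean of at least 100 normalized counts, those most like Batf were Mdh1, Tmem147 and Ube2b, with r of 0.97, 0.96 and 0.96. Those most like Jun were Zfp740, Ptger4 and the heat shock gene Hspa1b, with r of 0.96, 0.96 and 0.95, and those most like Junb were Dusp4, Mettl6 and Zfp36l1, with r of 0.96, 0.95 and 0.95. For Batf3 they included 1700007L15Rik and 1810011H11Rik, with r of 0.99 and 0.99, and both were at 0 in CCR8- replicate 1, as Batf3 was. The closest gene was Pip5k1a for Fos (r of 0.93), Rad21 for Fosb (0.95), Srrm1 for Fosl2 (0.97), Gclc for Jund (0.98) and Hlf for Irf4 (0.97).

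Fos and Batf lie on the same chromosome with 209 kb between them, and RefSeq places 6 genes from one to the other, of which 3 were measured. The measured gene between them is Jdp2, a bZIP protein that pairs with JUN and represses AP-1 sites. Jdp2 was measured at 386, 265, 399.99 and 616 normalized counts in CCR8- replicates 1 to 4 and at 1175, 753, 2588 and 1253.5 in CCR8+ replicates 1 to 4. All CCR8+ libraries were above all CCR8- libraries, which by itself fixes the exact permutation p at 0.0286. The log2 difference was 1.71, with an adjusted limma p of 0.8286. DESeq2 called Jdp2 at an adjusted p of 0.0422, whereas over the 24 alternatives its adjusted p ranged from 0.00563 to 0.999. The gene was among those that earlier results of these libraries had singled out. In their order along the chromosome, Fos, Jdp2 and Batf had log2 differences of -0.17, 1.71 and 0.61.

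Of 13 other AP-1, MAF and BACH genes tested, limma called 0, 2 had an unadjusted p under 0.05 with CCR8+ cells higher and 0 lower, and 1, Jdp2, did not overlap. Their median log2 difference was 0.16, beside 0.04 over all genes tested. Nfil3, a repressor of the same superfamily, was at 1417 to 2457 in CCR8- and 2279.7 to 5994 normalized counts in CCR8+ cells, and Atf3, a stress-induced factor, at 745 to 2847 and 1896 to 4566. Maf, which drives interleukin-10 in T cells, was at 375 to 997 and 332 to 812. Bach2, a repressor that competes for AP-1 sites, was at 9.85 to 85.2 and 0 to 50.4, and Bach1 at 0 to 63.6 and 33.1 to 262. Among 18 ATF, CREB and CEBP genes limma called 0, 2 had an unadjusted p under 0.05 with CCR8+ cells higher, and the median was 0.29. Xbp1, a factor of the secretory stress response, was at 2144 to 3181 in CCR8- and 3903 to 6221 in CCR8+ cells without overlap, and Cebpg, a dimer partner of other bZIP factors, was at 712 to 807 and 353 to 655 without overlap in the other direction. Crem, a cyclic AMP-responsive factor, was at 3569.7 to 9375 and 7577 to 15237.

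Other IRF family and partner genes gave 0 calls among 8 tested, 1 with an unadjusted limma p under 0.05 in each direction, none without overlap and a median log2 difference of -0.30. Irf8, which BATF proteins can recruit in place of IRF4, was measured at 322, 251, 517.5 and 927 normalized counts in CCR8- replicates 1 to 4 and at 592, 930.4, 1586 and 1283 in the CCR8+ ones. Only CCR8- replicate 4 lay above the lowest CCR8+ library, and the log2 difference was 1.21 with an adjusted limma p of 0.838. Irf1, an interferon-induced factor, was at 4854 to 9089 in CCR8- and 3085 to 6754 in CCR8+ cells. Spi1, which encodes the myeloid partner PU.1, had a log2 difference of 3.68 and ranged from 0 to 798 in CCR8- and from 13.7 to 599 in CCR8+ cells. It was at 0 in CCR8- replicates 1 and 3, and its means were 220 in CCR8- and 377 in CCR8+ cells. CCR8- replicate 4, the highest of its group for Irf8 and Spi1, was the library with the highest macrophage marker sum. Among CCR8+ libraries, replicate 3 had the highest Irf8 (1586) but the lowest marker sum (7591) and the lowest Spi1 (13.7). Replicate 1 had the lowest Irf8 of the CCR8+ libraries (592) and their highest marker sum (61406). The part of such cells in these values was not tested.

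Upstream of AP-1, 28 genes of MAP kinases, their activators and ternary complex factors gave 0 limma calls, 1 gene with an unadjusted p under 0.05 in each direction and a median log2 difference of 0.08. Gadd45b, an activator of stress kinases, was at 2444 to 12923 in CCR8- and 9257 to 21989 normalized counts in CCR8+ cells, and Prkcq, the protein kinase C of antigen receptor signaling, at 2501 to 4760.4 and 1502 to 3288. Hras, at 659.96 to 870 in CCR8- and 924 to 1093 in CCR8+ cells, was the one gene without overlap. Map3k8, Mapk8 and Srf had log2 differences of -0.10, -0.83 and 0.11. Elk4 had the lowest difference of the list, -2.88, with CCR8+ replicate 1 at 0, and Map3k7 the highest, 1.66, with CCR8- replicate 1 at 0.985 against 404 to 506 in the other CCR8- libraries.

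Downstream, 28 effector T cell genes had been listed as targets of AP-1, BATF or IRF4 from general knowledge, and binding was not measured here. Limma called 0 of them, 10 had an unadjusted p under 0.05 with CCR8+ cells higher and 1 lower, and the median log2 difference was 0.83. Groups did not overlap for 6 genes with CCR8+ cells higher, among them Ccr8 itself, the basis of the sort, and for Cd69 with CCR8+ cells lower, beside the 2.37% and 2.03% of all genes tested. Several of these genes were known from earlier results when the list was made, so the count is no independent evidence of a direction. Il5 was at 1525 to 5359.6 in CCR8- and 9429.95 to 43276 normalized counts in CCR8+ cells, Il13 at 27.3 to 70.2 and 340.4 to 836, Ctla4 at 7662 to 11692 and 15421 to 43338, and Tnfrsf9 at 2358 to 4987 and 7710.3 to 16052. DESeq2 called these 4 genes of the list. Cd69, an early activation antigen, was at 10523.5 to 11418 in CCR8- and 5256 to 9126 in CCR8+ cells. Il10 was at 24.6 to 1408 and 1265 to 18130 (log2 difference 3.80), and Il21 at 0 to 566 and 415 to 2461 (4.18). For both, the lowest library was CCR8- replicate 1, which had the fewest genes detected. The other CCR8- libraries were at 360 to 1408 for Il10 and at 56.6 to 566 for Il21. Il2 was at 72.8 to 157 in CCR8- and 1.08 to 113 in CCR8+ cells. Il4, Ifng, Csf2, Prdm1 and Icos overlapped, with log2 differences of 0.85, -0.34, 0.81, -0.02 and -0.75.

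Immediate-early and dissociation-induced genes other than the 9 were examined because the stimuli that induce Fos and Jun also induce them. Limma called 0 of 26, 2 had an unadjusted p under 0.05 with CCR8+ cells higher and 4 lower, and the median log2 difference was 0.00. Among all genes tested, 2.8% had such a p with CCR8+ cells higher and 2.29% lower. Groups did not overlap for 3 genes, all with CCR8+ cells lower, beside 2.03% of all genes tested. This list was also made with earlier results known, so its counts are no independent evidence of a direction. Ier2, an immediate-early gene, was at 10007 to 11392 in CCR8- and 5552 to 7819.96 normalized counts in CCR8+ cells, Dusp1, a phosphatase that turns off MAP kinases, at 24654 to 52454 and 15712.5 to 23307, and Ppp1r15a, a stress-response phosphatase subunit, at 10342 to 13509 and 6741 to 9074. The 2 genes with an unadjusted p under 0.05 and CCR8+ cells higher were Gadd45b, given above, and Ier3, which had the largest difference of the list (log2 3.19) and overlapped at 24.6 to 2141 in CCR8- and 1823 to 13775 in CCR8+ cells. Ier3 was at 24.6 in CCR8- replicate 1 and at 738 to 2141 in the other CCR8- libraries. Egr1, Zfp36 and Nr4a1 overlapped, with log2 differences of -0.15, -0.01 and -0.01. The summed level of the list was 214465, 218965, 321829 and 288654 in CCR8- replicates 1 to 4 and 190401, 203642, 372239 and 244218 in the CCR8+ ones. Replicate 3 had the highest sum in both populations, as it had for Jun, Junb, Jund, Fos and Irf4. The part of tissue handling in the levels of the 9 genes was not tested.

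**Figure D5:**
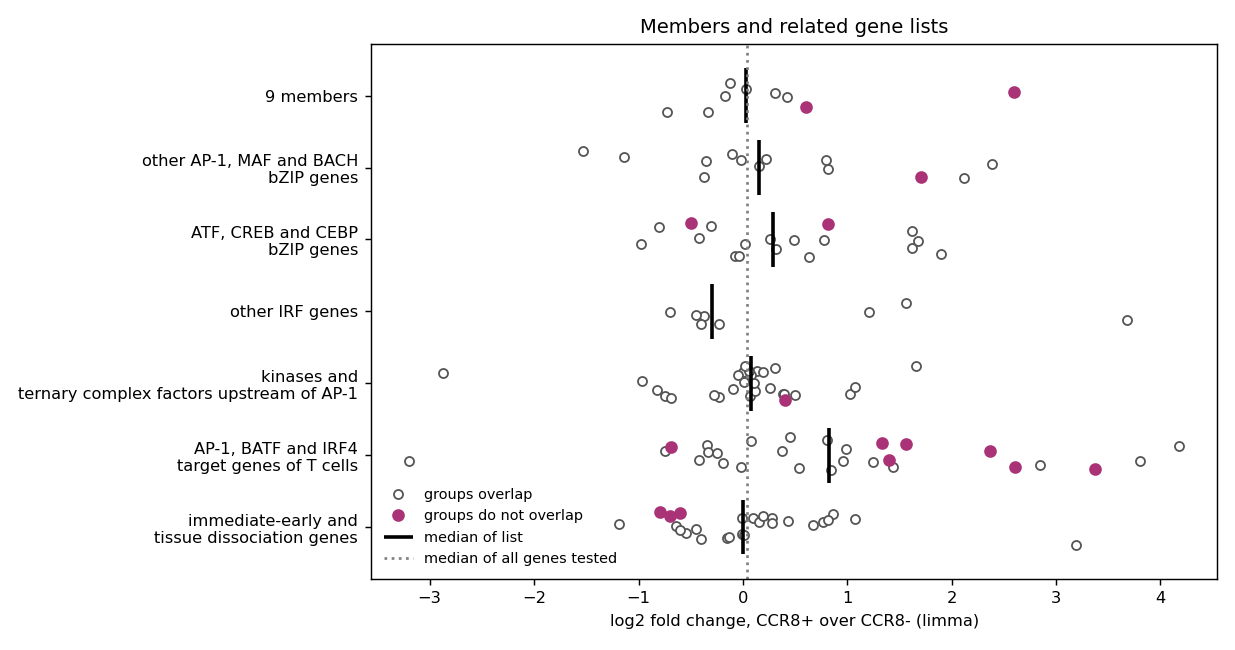
Limma log2 fold change of CCR8+ over CCR8- cells (horizontal axis) for the 9 genes and for 6 related gene lists, 1 point per gene, filled where the groups did not overlap, with the median of each list as a black bar and that of all genes tested (0.04) as a dotted line. The median is 0.03 for the 9 genes and 0.83 for the listed targets.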

How the data were processed

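The authors trimmed reads with Cutadapt, aligned them with hisat2 to NCBIM37 (mm9), kept uniquely mapped reads and normalized to library size with intergenic reads. HTSeq is also in the submitters' processing notes, and neither tool versions nor strand settings are given in the sources used here. The deposited values are a signal, read counts divided by 1 factor per library, since 100% of values were whole multiples (tolerance 0.01) of the smallest one, and whole reads were recovered from them. A single name is listed more than once.

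Groups came from the sample titles. The main test was limma 3.58.1 (R 4.3.3) with an intensity trend on log2(normalized count + 1), over the 11032 genes that averaged 10 or more, adjusted by Benjamini-Hochberg, with calls at an adjusted p under 0.05. Exact two-sided permutation tests used the 70 assignments of 8 libraries. edgeR 4.0.16 and DESeq2 1.42.0 (the authors' test) were run on the recovered reads as alternatives. Other alternatives were 3 scalings, pseudocounts of 0.1 and 10, no minimum mean or one of 100, no trend, the replicate block and leaving out replicates. The scripts were tested on simulated data. Same-numbered libraries correlated by 0.0682, 0.138, 0.108 and 0.217 in their deviations from the group means, and the labels do not say what a number stands for.

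The 9 genes and the gene lists were chosen with earlier results of these data known. Named from the lists were the 2 highest and 2 lowest genes that averaged 100 or more and a fixed set of key genes, and the text also names other genes whose groups did not overlap, chosen after their values were seen. Some genes of the lists are not reported here. Lengths came from GENCODE M21 and RefSeq (GRCm38), promoters from RefSeq GRCm38.p6. This build differs from the authors' build, so the lengths behind per-kilobase levels and the gene order may differ from those behind the deposited values.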

Additional observations from a re-analysis of the deposited data

Results flagged for a closer look

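A sample far from the other 3 of its group was looked for on the log2 scale with Dixon's ratio, the gap to the nearest sample divided by the range above its 95% critical value, in 112 groups of 4 from 56 genes (the 9 genes, the 2 highest and 2 lowest of each related list, and the fixed key genes). Chance flags about 1 in 20 groups of unselected, independent values. That rate does not hold here, since the highest and lowest genes were picked by differences that a single outlying library can enlarge. Groups that share a library are also not independent. In these groups 9 flags were found, 6 of them for CCR8- replicate 1. Among the 9 genes only Batf3 was found, in CCR8- cells, with a ratio of 0.888 and replicate 1 at 0 against 23.7 to 36.0 normalized counts. The other 5 for this library were Atf6b (0.894, at 0.985 against 366 to 679.8), Irf5 (0.913, at 12.8 against 599.99 to 859), Map3k7 (0.959, at 0.985 against 404 to 506), Nfil3 (0.955, at 1417 against 2397 to 2457) and Bach1 (0.883, at 0 against 38.6 to 63.6). The remaining 3 were Irf9 in CCR8- cells (0.872, replicate 2 the highest at 1999.96 against 1374 to 1441), Spi1 in CCR8+ cells (0.891, replicate 3 the lowest at 13.7 against 399 to 599) and Gadd45a in CCR8+ cells (0.854, replicate 1 at 0 against 121 to 276).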

How the results depend on the processing

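None of the 9 genes was called under any of the 24 alternatives, and their lowest adjusted p was 0.468 (Batf, DESeq2 with the replicate block). Batf was higher in CCR8+ cells throughout (log2 0.31 to 0.77), as was Batf3 (1.16 to 3.44), and Jun was lower throughout (-1.18 to -0.21). Leaving out a library cannot make separate groups overlap, so the count of 2 genes without overlap could not fall. It did not rise either with any single library left out, where 3.45% to 4.70% of all genes were higher without overlap. Direction turned for Junb with equal library totals (-0.040) and for Fosl2 in edgeR (0.37) and DESeq2 (0.37), but not for Fosl2 in DESeq2 with the replicate block (-0.11). With replicates left out, singly or as a number, log2 differences ranged from -0.41 to 0.10 for Fos, -0.54 to 0.027 for Fosb, -0.70 to 0.49 for Fosl2, -0.13 to 0.21 for Junb, -0.10 to 0.64 for Jund and -0.21 to 0.88 for Irf4. The cause of these turns was not tested.

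Over all genes limma called 0 in the main fit and with any library or number left out, 2 without the trend, edgeR 0 and DESeq2 27, with 562, 465, 487 and 602 genes at an unadjusted p under 0.05 in the main fit, without the trend, in edgeR and in DESeq2. With the replicate block limma called 1 gene and DESeq2 126. The replicate numbers were not taken to pair the libraries, since the labels do not say what a number stands for. Not every library correlated best with its own number. Same-numbered libraries correlated by 0.0682, 0.138, 0.108 and 0.217, and differently numbered ones by -0.171 to 0.101. Thus 3 of 4 same-numbered pairs lay above all differently numbered ones, and what the numbers share was not tested. Under the block the log2 difference of Batf was 0.61 with an adjusted p of 0.758. Depth limits Batf3, which had 101 reads in all CCR8- and 321 in all CCR8+ libraries, and Batf3 was not tested with a minimum mean of 100.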
